A study of Mus musculus with 4 samples.

Results

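The histone genes on a mouse whole-genome expression array were compared between Dicer mutant and control cerebellum. Members were the probes whose gene name on the array began with Hist1h, Hist2h, Hist3h or Hist4h, or with H1f, H2af or H3f3. These were 67 of 41174 probes, under 47 names. A probe was kept where the scanner software marked it as well above background in all 4 mutants or in all 4 controls, and 52 of the 67 passed. They stood for 37 of the 17654 genes tested, with the brightest probe of each gene. Of these, 26 were genes of the replication-dependent clusters (names beginning Hist) and 11 were variants. The 10 names without a probe above background were all clustered genes, so the 26 are not the whole of the clusters.

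Histones are the proteins around which DNA is wound. H2A, H2B, H3 and H4 form the core of the nucleosome, and H1 binds the linker DNA between nucleosomes. The clustered genes lie in arrays of many near-identical copies, are transcribed mainly in S phase, and give transcripts that mostly end in a stem-loop instead of a poly(A) tail. Variant genes mostly lie outside these arrays, mostly give polyadenylated transcripts in dividing and resting cells alike, and supply most newly made histone in neurons that no longer divide. The classes here were taken from gene names alone, and single genes can depart from this description. Dicer is the enzyme that cuts microRNA precursors into mature microRNAs.

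Each array held cerebellar RNA of 1 Dicer mutant (mGfap-Cre; Dicer flox/flox) and of 1 control littermate (mGfap-Cre; Dicer +/flox), both at postnatal day 30 and of a mixed strain background. There were 4 such pairs. The Cre transgene, driven by a mouse Gfap promoter, and at least 1 floxed allele were therefore present in all animals, and the whole cerebellum was measured, not the cells in which Cre acted. The mutant was labelled with Cy5 in pairs 1 and 3 and with Cy3 in pairs 2 and 4. The mutants had 26416 to 28914 probes above background and the controls 26311 to 27726. No spot was saturated, and precision is limited by there being 4 arrays. All 10 markers of granule neurons and all 10 of Purkinje neurons were measured, and none of these 20 genes was called. Over all genes, only 0.595% were called higher and 0.442% lower. The median ratio was -0.01 in each of these neuron lists, and 0 genes were higher or lower at an unadjusted p under 0.05 (limma). Of 10 oligodendrocyte lineage markers, 9 had ratios below 0 and none was called. The 4 that were lower in all 4 pairs were also lower at an unadjusted p under 0.05 (limma). Of all genes, 7.38% were lower in all 4 pairs and 4.57% were lower at that p. The median of the 10 was -0.23, with summed linear levels of 176470 to 227750 in mutants and 209150 to 262260 in controls. All 10 endothelial markers had ratios below 0, with a median of -0.08 and no call. Of 10 astroglial markers, 4 had ratios above 0 and 6 below, with a median of -0.31. In all 4 pairs 3 were higher and 5 lower, against 7.77% and 7.38% of all genes. Aldh1l1 (log2 ratio 1.50 ± 0.23) and Gfap (1.47 ± 0.35) rose in mutants while S100b (-0.56 ± 0.09) and Aqp4 (-0.54 ± 0.26) fell (SD over 4 pairs), and these 4 were called. Slc1a2 (-0.58 ± 0.20) and Gdf10 (0.87 ± 0.46) were not called. Summed linear levels of the 10 markers were 246250 to 299970 in mutants and 319550 to 348510 in controls. The part of these marker differences in the histone values below was not tested.

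Several clustered genes are so alike that their probes share most of their bases, and these sequences decide how many separate measurements there were. Among the 67 probes, 6 pairs of probes for different genes matched over at least 45 bases at 90% identity or more. The following lines give 3 probes for H2B genes, with capitals at the bases that differ from the first line.
Hist1h2bk, chr13:22127928-22127987 (mm9, + strand): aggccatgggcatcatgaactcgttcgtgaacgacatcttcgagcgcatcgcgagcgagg
Hist1h2bm, chr13:21814139-21814198 (mm9, + strand): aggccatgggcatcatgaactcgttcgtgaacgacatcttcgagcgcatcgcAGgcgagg
Hist3h2bb, chr11:58767697-58767756 (mm9, - strand): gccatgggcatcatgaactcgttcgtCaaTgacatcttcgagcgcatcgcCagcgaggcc
The Hist1h2bm probe differed from that of Hist1h2bk at 2 of 60 bases, and the Hist3h2bb probe at 3 of the 58 bases that overlap. Whether each of these probes binds transcripts of the other genes was not tested, and the 3 values are not independent. Counts below are given by gene and, where it matters, also with such sets counted once.

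The H4 genes gave a second such set, again with capitals at the bases that differ from the first line.
Hist1h4d, chr13:23673665-23673724 (mm9, + strand): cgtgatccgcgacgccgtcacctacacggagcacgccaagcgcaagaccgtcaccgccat
Hist1h4f, chr13:23643249-23643308 (mm9, - strand): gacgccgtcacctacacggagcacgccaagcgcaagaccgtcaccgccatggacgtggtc
Hist2h4, chr3:96066953-96067012 (mm9, - strand): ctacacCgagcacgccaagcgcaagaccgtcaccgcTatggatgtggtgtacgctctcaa
The probes of Hist1h4d and Hist1h4f were identical over the 50 bases they share. Hist2h4 differed from the first line at 2 of 39 shared bases. The last of the 6 matching pairs was Hist1h2ai with Hist1h2ak, at 91.7% of 60 bases.

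No histone gene was called in either direction by limma at an adjusted p under 0.05. Over all 17654 genes, 0.595% were called higher and 0.442% lower in mutants. At an unadjusted p under 0.05, 8 histone genes were higher and 0 lower, against 4.90% and 4.57% of all genes. The lowest adjusted p of a histone gene was 0.0854 (Hist1h2bk). Of the 26 clustered genes, 7 were higher in the mutant of all 4 pairs (26.9%, against 7.77% of all genes) and 0 were lower in all 4. With each set of near-identical probes counted once, a count added after the data had been seen, 5 of 21 clustered units were higher in all pairs (23.8%), and 6 histone units in place of 8 genes were higher at an unadjusted p under 0.05. Of the 11 variants, 0 were higher and 1 was lower in all 4 pairs (against 7.38% of all genes lower). In whole tissue, a different number of cells of a type and a different amount of RNA per cell cannot be told apart.

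The 7 clustered genes higher in every pair were Hist1h2bk, Hist1h2bm, Hist3h2bb, Hist1h2ba, Hist1h2bc, Hist1h1c and Hist1h4i, so 5 of them code for, or are named after, H2B. The plot of ratios by gene shows the H2B group at its top, with 5 of 7 genes wholly to the right of 0, or 3 of 5 with near-identical probes counted once.

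**Figure D1:**
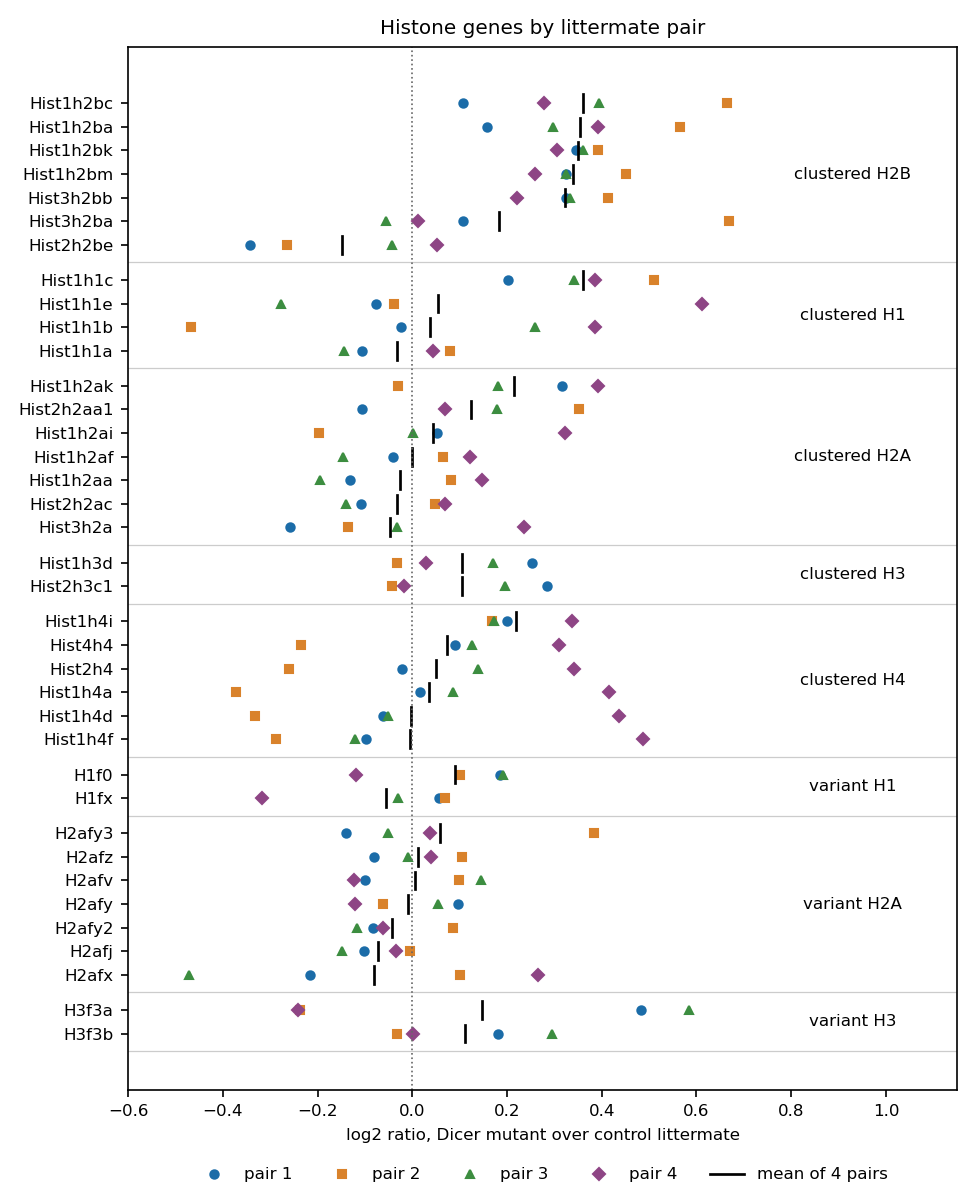
Log2 ratio of mutant over control littermate (horizontal axis) for the 37 histone genes tested, grouped by class and histone type. Symbols are the 4 littermate pairs and the black line is their mean; 7 clustered genes and 0 variants have all 4 symbols above 0.

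Hist1h2bk (current name H2bc12), an H2B gene of the large cluster on chromosome 13, had normalized log2 levels of 12.69, 12.70, 12.99 and 12.87 in mutants, against 12.34, 12.31, 12.63 and 12.56 in controls. Every mutant lay above every control. The log2 ratio was 0.35 ± 0.04 (SD, n = 4 pairs), a 1.28-fold difference, with limma's 95% interval from 0.21 to 0.50 and an adjusted p of 0.0854. A second probe of Hist1h2bk, over a neighbouring stretch (chr13:22127862-22127921, mm9) that shares no long match with the first, gave ratios of 0.32, 0.38, 0.54 and 0.19. Its mean of 0.36 ± 0.15 differed from the first probe's by less than the spread between pairs.

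Hist1h2bm (H2bc14), another H2B gene of that cluster, had levels of 12.76, 12.84, 13.03 and 12.96 in mutants and 12.43, 12.39, 12.70 and 12.70 in controls. The levels did not overlap, and the log2 ratio was 0.34 ± 0.08 (adjusted p = 0.121, limma). Hist3h2bb, listed in the current reference as the transcribed pseudogene H2bu1-ps on chromosome 11, stood at 12.95, 12.97, 13.18 and 13.03 in mutants and at 12.62, 12.56, 12.85 and 12.81 in controls. Its ratio of 0.32 ± 0.08 (adjusted p = 0.137, limma) could not be separated from those of Hist1h2bk and Hist1h2bm, whose probes it nearly shares.

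Hist1h2bc (H2bc4), whose probe (chr13:23784219-23784278, mm9) matched the Hist1h2bk probe at 27.1% of bases only, had levels of 12.47, 12.63, 12.63 and 12.52 in mutants and 12.36, 11.96, 12.23 and 12.24 in controls. These groups did not overlap either. The log2 ratio ranged from 0.11 in pair 1 to 0.67 in pair 2, with a mean of 0.36 ± 0.23 and an adjusted p of 0.244 (limma). Levels without overlap, with every mutant above every control, were thus found for 4 of the 37 histone genes (Hist1h2bk, Hist1h2bm, Hist3h2bb and Hist1h2bc), against 2.20% of all genes, and 3 of the 4 have nearly the same probe.

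Hist1h2ba (H2bc1) is the H2B gene known from testis. Its probe (chr13:24025811-24025870, mm9) matched that of Hist1h2bk at 87.5% of 40 shared bases. That is below the limits set here for near-identical probes, so this gene was counted on its own. Whether its probe binds transcripts of other H2B genes was not tested. Levels were 11.39, 11.59, 11.74 and 11.53 in mutants and 11.23, 11.02, 11.44 and 11.14 in controls. Each mutant was above its own littermate, though the groups overlapped, and the ratio was 0.35 ± 0.17 (adjusted p = 0.121, limma).

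The other H2B genes did not share this pattern. Hist3h2ba (H2bu2) had ratios of 0.11, 0.67, -0.06 and 0.01, so that pair 2 alone set its mean of 0.18 ± 0.33 (adjusted p = 0.758, limma). Its levels were 13.43, 13.36, 12.95 and 12.52 in mutants and 13.32, 12.69, 13.01 and 12.51 in controls. Hist2h2be (H2bc21, chromosome 3) had ratios of -0.34, -0.26, -0.04 and 0.05, with a mean of -0.15 ± 0.18 (adjusted p = 0.725, limma). Its mutants stood at 9.93, 10.09, 10.21 and 10.11 and its controls at 10.28, 10.36, 10.25 and 10.06.

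**Figure D2:**
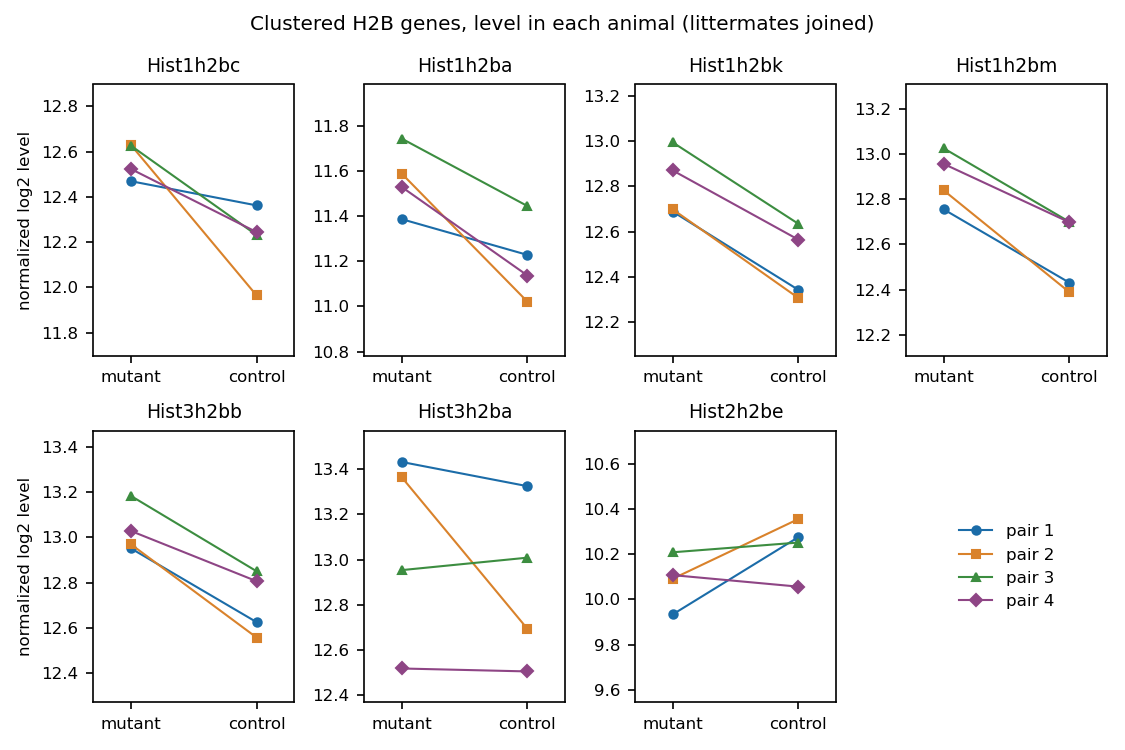
Normalized log2 level (vertical axis, 1.2 log2 units in each panel) of the 7 clustered H2B genes in each mutant (left) and its control littermate (right), joined by pair. The lines of Hist1h2bk, Hist1h2bm and Hist3h2bb run nearly parallel, and those of Hist3h2ba and Hist2h2be do not.

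Among the clustered linker histone genes, Hist1h1c (H1f2, the gene of H1.2) was the only one of 4 higher in every pair. Its levels were 11.73, 11.82, 12.15 and 11.96 in mutants and 11.53, 11.31, 11.81 and 11.57 in controls (chr13:23832018-23832077, mm9). The ranges of mutants and controls overlapped, and the ratio was 0.36 ± 0.13 with an interval from 0.20 to 0.52 and an adjusted p of 0.104 (limma). Hist1h1a (-0.03 ± 0.11), Hist1h1b (0.04 ± 0.38) and Hist1h1e (0.06 ± 0.39) had ratios on both sides of 0. Hist1h1b and Hist1h1e were both highest in pair 4, at 0.39 and 0.61.

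The 7 clustered H2A genes had a median ratio of 0.00, and none was higher or lower in all 4 pairs. Hist1h2af (H2ac10), the brightest, had ratios of -0.04, 0.07, -0.15 and 0.12, with a mean of 0.00 ± 0.12 (adjusted p = 0.999, interval from -0.15 to 0.15, limma). Hist1h2ak (H2ac15) had the highest mean of the H2A genes, 0.21 ± 0.19, and was below 0 in pair 2. Hist1h2aa (H2ac1), the H2A gene known from testis that neighbours Hist1h2ba, stood at -0.02 ± 0.16, beside 0.35 ± 0.17 for Hist1h2ba. Its mean level was 13.41 in mutants and 13.44 in controls. Whether the probes of these genes bind transcripts of other histone genes was not tested.

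Both clustered H3 genes measured followed the dye order. Hist2h3c1 (H3c14), the brighter, had ratios of 0.28 and 0.20 in pairs 1 and 3, where the mutant carried Cy5, and of -0.04 and -0.02 in pairs 2 and 4, where it carried Cy3. Its mean was 0.10 ± 0.16 (adjusted p = 0.709, limma). Hist1h3d had a mean of 0.11 ± 0.13.

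The clustered H4 genes had mostly shared signs in pairs 2 and 4 and mixed signs in pairs 1 and 3. In pair 2, 5 of 6 were lower in the mutant, and in pair 4 all 6 were higher. Hist1h4f (H4c6), the brightest, had levels of 12.47, 12.28, 12.13 and 12.36 in mutants and 12.57, 12.57, 12.25 and 11.87 in controls. The control of pair 4 was the lowest of the 8 animals, and the ratios were -0.10, -0.29, -0.12 and 0.49. Their mean was 0.00 ± 0.34, with an interval from -0.33 to 0.33 (adjusted p = 0.995, limma). Hist1h4a, Hist1h4d, Hist2h4 and Hist4h4 had means from 0.00 to 0.07 with SDs from 0.23 to 0.32 and the same order of pair 2 below pair 4. Since the probes of Hist1h4d, Hist1h4f and Hist2h4 share long stretches, this pattern is not 6 separate observations. Markers of choroid plexus, the secretory tissue beside the cerebellum, had pair medians in the same order: 0.14, -0.58, 0.42 and 0.55, beside 0.00, -0.27, 0.11 and 0.38 for H4 in pairs 1 to 4. All 10 of these markers were tested and none was called, and their summed levels ran from 17440 to 29919 in mutants and from 14342 to 27635 in controls (linear normalized intensity). Their part in the H4 values was not tested. Hist1h4i (H4c9) differed from the rest, with ratios of 0.20, 0.17, 0.17 and 0.34 and a mean of 0.22 ± 0.08 (adjusted p = 0.312, limma).

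Of the 7 clustered genes higher in all pairs, 6 were on chromosome 13, where 17 of the 26 clustered genes tested lie, and 1 was among the 3 on chromosome 11. The latter was Hist3h2bb, whose probe is nearly that of Hist1h2bk and Hist1h2bm on chromosome 13. Its signal therefore cannot be assigned to 1 chromosome. None was among the 5 on chromosome 3.

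The variants were close to 0 on average. H3f3a and H3f3b both code for H3.3, the replacement form of H3. H3f3a had ratios of 0.48 and 0.58 with the mutant in Cy5 and of -0.24 and -0.24 with the mutant in Cy3. The sign thus followed the dye, by a dye term of 0.39 (log2 Cy5 over Cy3), and its mean of 0.15 ± 0.45 had an adjusted p of 0.528 (limma with the dye term). The other 2 probes of H3f3a turned sign with the dye in the same way. H3f3b showed ratios of 0.18, -0.03, 0.30 and 0.00 (mean 0.11 ± 0.15, adjusted p = 0.695, limma).

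**Figure D3:**
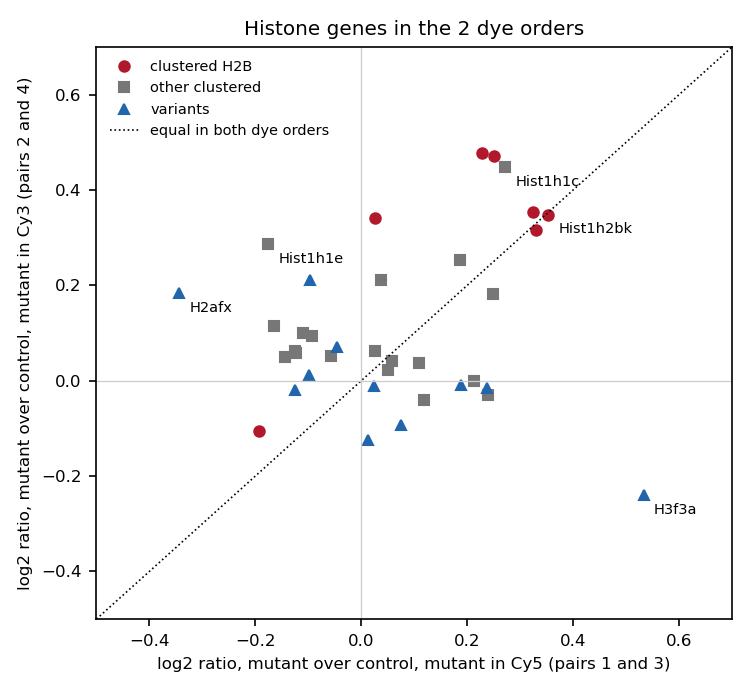
Mean log2 ratio of mutant over control in the 2 pairs with the mutant in Cy5 (horizontal axis) against the 2 pairs with the mutant in Cy3 (vertical axis), for 37 histone genes. Points on the dotted line are equal in both dye orders; Hist1h2bk lies on it at 0.35 and 0.35, and H3f3a lies far from it at 0.53 and -0.24.

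Among the H2A variants, H2afz and H2afv code for the forms of H2A.Z, which marks promoters and enhancers. H2afz had ratios of -0.08, 0.10, -0.01 and 0.04 (mean 0.01 ± 0.08) with an interval from -0.13 to 0.16. H2afv (H2az2), the brightest H2A variant, averaged 0.01 ± 0.14 with an interval from -0.18 to 0.20 (adjusted p = 0.991, limma). H2afx, the gene of the H2A form that is phosphorylated around DNA breaks, had ratios of -0.22, 0.10, -0.47 and 0.27, again split by dye order, and a mean of -0.08 ± 0.33 (adjusted p = 0.845, limma).

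H2afj (H2aj, the gene of H2A.J) was the only gene lower in all 4 pairs by its brightest probe, with ratios of -0.10, -0.0043, -0.15 and -0.03 (mean -0.07 ± 0.06, adjusted p = 0.812, limma). Its second probe did not keep that sign, at 0.04, -0.86, 0.31 and -0.16 (mean -0.16 ± 0.50). The macroH2A genes, whose products are enriched on silent chromatin such as the inactive X, gave -0.01 ± 0.10 for H2afy and -0.04 ± 0.09 for H2afy2. H2afy2 was dim and above background in 3 of 4 mutant channels. H2afy3 (Macroh2a3, a transcribed pseudogene in the reference) averaged 0.06 ± 0.23, with 0.38 in pair 2. The linker variants were H1f0 (H1.0, typical of differentiated cells; 0.09 ± 0.14, adjusted p = 0.795) and H1fx (H1x; -0.06 ± 0.18, adjusted p = 0.917, both limma), and each was lowest in pair 4.

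Set side by side, clustered genes had a median log2 ratio of 0.06, variants of 0.01 and all 17654 genes of 0.00. The medians of clustered genes were 0.03, 0.01, 0.13 and 0.29 in pairs 1 to 4, and those of variants were -0.08, 0.09, -0.01 and -0.06. Clustered minus variant was 0.12, -0.08, 0.14 and 0.35 by pair, a mean of 0.13 ± 0.18, so the sign was not the same in all pairs. Without pair 4 the clustered median was -0.018 and the difference of medians was -0.059, and without pair 2 they were 0.20 and 0.22.

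The 7 clustered H2B genes, singled out after their values had been seen, had a median of 0.34, with 0.16, 0.45, 0.33 and 0.26 by pair. The median of the other 19 clustered genes was 0.04, with -0.02, -0.04, 0.09 and 0.32 by pair. H2B minus variant medians were 0.24, 0.36, 0.33 and 0.32 by pair, a mean of 0.31 ± 0.05. Because 3 of the 7 probes nearly coincide, the H2B median is weighted towards that stretch of sequence.

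**Figure D4:**
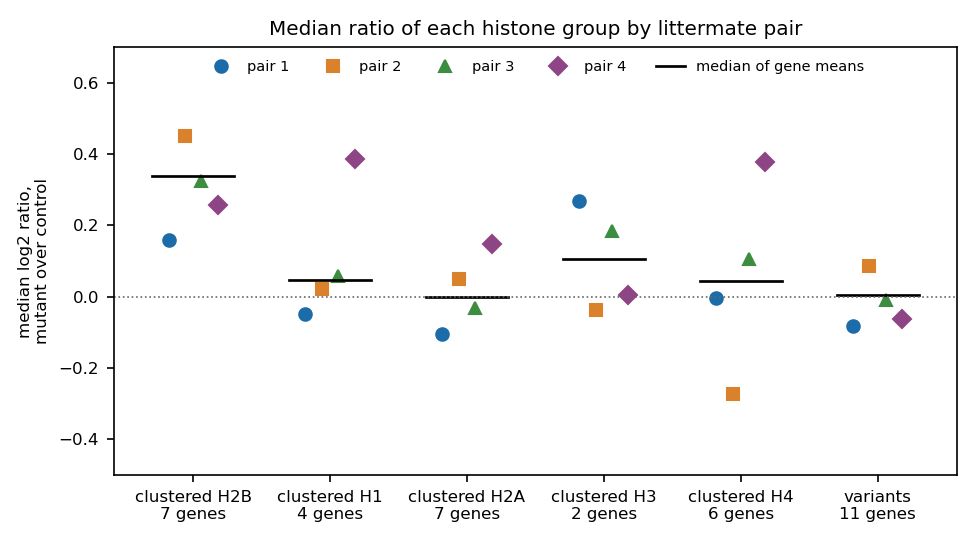
Median log2 ratio of mutant over control (vertical axis) for each type of clustered gene and for the variants, with 1 symbol per littermate pair and a line at the median of the gene means. H2B is above 0 in all 4 pairs, H4 spans -0.27 to 0.38, and the variants span -0.08 to 0.09.

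For 12 genes, more than 1 probe was above background, which allowed a check within the gene. The means of a gene's probes lay within 0.12 of each other in 10 of the 12. The exceptions were Hist1h1e and Hist1h2af. Not all of the 10 are separate checks within 1 gene. The H1f0 probes at chr15:78859930-78859989 and chr15:78859936-78859994 (mm9) overlap. The probes named Hist2h2ac lie on opposite strands, at chr3:96024468-96024524 and chr3:96049751-96049810 (mm9). For Hist1h1e (H1f4, the gene of H1.4), the brighter probe (chr13:23713707-23713766, mm9) gave ratios of -0.08, -0.04, -0.28 and 0.61. The dimmer probe lies 2260 bases away (chr13:23711387-23711446, mm9), and its levels were 7.85, 7.86, 7.83 and 8.09 in mutants and 7.30, 7.12, 7.15 and 7.48 in controls. These levels did not overlap, and the ratio was 0.65 ± 0.09. When each of 25924 probes was tested on its own, which calls 0.486% of them higher, this probe was called higher with an adjusted p of 0.0248 (limma). It was named after its values had been seen, and which transcript it measures was not established. For Hist1h2af the second probe gave 0.24, 0.26, 0.19 and 0.19 (mean 0.22 ± 0.04, adjusted p = 0.342 when tested on its own, limma), beside 0.00 ± 0.12 for the brighter.

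**Figure D5:**
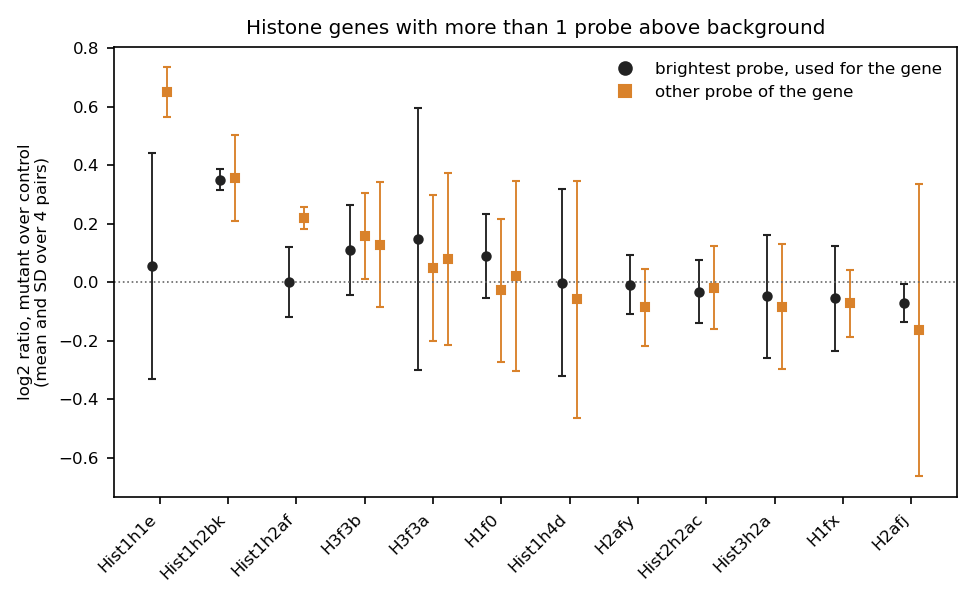
Mean log2 ratio of mutant over control (vertical axis; bars are SD over 4 pairs) for each probe of the 12 histone genes with more than 1 probe above background. Circles are the probes used for the gene and squares are the others; the probes of Hist1h1e stand apart at 0.06 and 0.65, while those of Hist1h2bk are at 0.35 and 0.36.

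The 15 probes that were not above background had mean ratios from -0.10 to 0.20, with a median of 0.03. They included the other 10 clustered names, among them Hist1h1t, the linker histone of testis, and Hist1h3a, the only member whose probe holds the letters of the histone stem-loop. Of these 15 probes, 5 were higher and 0 were lower in all 4 pairs, but none passed the background criterion. The shares of all genes (7.77% and 7.38%) cover only genes that passed it, so no like share stands beside this count.

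Promoters of the members were read from RefSeq (GRCm38.p6) for 39 of the 47 names, as 300 bases from 250 before to 50 after the start. Both strands were searched for TATAAA, for CCAAT, for the octamer ATTTGCAT known from H2B promoters, and for AAACACA, known from H1 promoters. The octamer was found in 5 of 7 clustered H2B promoters (71.4%), in 6 of 10 H2A promoters (60.0%), in 0 of the 13 H1, H3 and H4 promoters, and in 1.74% of all 32851 promoters. CCAAT was in 27 of 30 clustered promoters, 6 of 9 variant promoters and 37.4% of all. TATAAA was in 66.7% of clustered, 11.1% of variant and 13.6% of all promoters. AAACACA was in 5 of 6 clustered H1 promoters (83.3%), against 7.18% of all. Of the H2A genes with the octamer, Hist1h2aa (-0.02 ± 0.16), Hist2h2ac (-0.03 ± 0.11) and Hist3h2a (-0.05 ± 0.21) were tested. Of the H2B genes with it, Hist1h2ba (0.35 ± 0.17), Hist1h2bk (0.35 ± 0.04) and Hist1h2bm (0.34 ± 0.08) were. The tested H2B gene whose promoter lacked it was Hist3h2ba (0.18 ± 0.33). No promoter was read for Hist1h2bc (0.36 ± 0.23), Hist3h2bb (0.32 ± 0.08) or Hist2h2be (-0.15 ± 0.18). Whether the ratios go with the octamer was not tested. Hist1h2aa and Hist1h2ba are neighbours on opposite strands, and whether such neighbours share the same octamer was not tested, so the octamer counts may not be of separate sites.

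The 250 bases before the start of 4 genes that were higher in all pairs are given here, with these motifs in capitals. They are shown because these genes had mean ratios between 0.34 and 0.36. Those of Hist1h2bk and Hist1h2bm come from near-identical probes, and the Hist1h2ba probe matched that of Hist1h2bk at 87.5% of 40 shared bases. The ratios of these H2B genes may thus not be separate.
Hist1h2bk, chr13:22035571-22035820 (GRCm38.p6, + strand): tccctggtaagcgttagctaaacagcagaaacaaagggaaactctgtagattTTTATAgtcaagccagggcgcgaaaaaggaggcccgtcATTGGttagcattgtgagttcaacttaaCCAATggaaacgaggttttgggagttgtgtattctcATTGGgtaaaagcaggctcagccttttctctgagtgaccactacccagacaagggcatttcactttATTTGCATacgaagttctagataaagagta
Hist1h2bm, chr13:21721794-21722043 (GRCm38.p6, + strand): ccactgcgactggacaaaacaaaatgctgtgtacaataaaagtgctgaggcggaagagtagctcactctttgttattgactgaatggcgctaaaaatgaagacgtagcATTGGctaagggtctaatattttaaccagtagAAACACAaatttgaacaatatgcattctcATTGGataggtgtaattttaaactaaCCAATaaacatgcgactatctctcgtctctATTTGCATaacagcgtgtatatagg
Hist1h2ba, chr13:23934157-23934406 (GRCm38.p6, - strand): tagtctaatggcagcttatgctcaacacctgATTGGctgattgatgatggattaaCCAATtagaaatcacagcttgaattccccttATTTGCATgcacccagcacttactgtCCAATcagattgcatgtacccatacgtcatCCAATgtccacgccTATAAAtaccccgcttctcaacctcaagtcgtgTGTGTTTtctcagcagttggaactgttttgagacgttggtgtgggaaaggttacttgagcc
Hist1h1c, chr13:23738557-23738806 (GRCm38.p6, + strand): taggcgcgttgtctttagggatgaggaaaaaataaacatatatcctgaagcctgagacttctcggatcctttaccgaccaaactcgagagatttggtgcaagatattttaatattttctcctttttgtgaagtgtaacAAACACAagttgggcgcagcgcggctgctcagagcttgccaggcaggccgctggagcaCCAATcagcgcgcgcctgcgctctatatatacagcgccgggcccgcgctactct
The octamer begins 30 bases before the start in Hist1h2bk, 25 in Hist1h2bm and 164 in Hist1h2ba, and the Hist1h1c promoter holds none. A match describes the letters only.

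Genes that act on histones or move with them were counted from lists. Of 61 listed genes of S phase and mitosis, 52 were tested and none was called by limma. At an unadjusted p under 0.05, 17 were higher and 0 lower, against 4.90% and 4.57% of all genes. Their median ratio was 0.11, with 0.09, 0.25, 0.10 and 0.06 by pair, and 17 of the 52 (32.7%) were higher in all 4 pairs while 0 were lower, against 7.77% and 7.38% of all genes. The lowest adjusted p values in this list were those of Cenpf, a kinetochore protein (0.55 ± 0.25, adjusted p = 0.0547), and Kif20a, a kinesin of cytokinesis (0.53 ± 0.14, adjusted p = 0.0629, both limma). These pair medians were highest in pair 2 and lowest in pair 4. The H2B median was highest in pair 2 (0.45) and lowest in pair 1 (0.16). The variant median was also highest in pair 2 (0.09), and that of the other 19 clustered genes was lowest there (-0.04). Whether the histone values move with the S phase and mitosis genes was not tested. Of 8 measured markers of granule neuron precursors, Hhip, a binding protein of hedgehog ligands, fell (-0.59 ± 0.13, adjusted p = 0.0212, limma). Gli2, a hedgehog pathway transcription factor, stood at 0.36 ± 0.17 (adjusted p = 0.109) and Gli1 at -0.13 ± 0.17 (adjusted p = 0.628, both limma). In all 4 pairs 1 gene of this list was higher (Gli2) and 1 lower (Hhip), against 7.77% and 7.38% of all genes. The median of the 8 was -0.02, with 4 above 0 and 4 below. Atoh1 and Rbp3 of this list were not tested. At an unadjusted p under 0.05, 1 of these 8 markers was higher and 1 lower, against 4.90% and 4.57% of all genes.

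The 28 measured genes of histone mRNA 3' end processing had a median of 0.01 and no call. At an unadjusted p under 0.05 (limma), 0 were higher and 1 lower, against 4.90% and 4.57% of all genes. In this list 0 genes were higher and 1 was lower in all 4 pairs, against 7.77% and 7.38% of all genes. The lowest p values belonged to Upf1, a helicase of RNA decay (-0.17 ± 0.21, adjusted p = 0.494), and Sympk, a scaffold of the cleavage complex (-0.19 ± 0.45, adjusted p = 0.618, both limma).

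Histone chaperones and factors that deposit variants, 39 measured, had a median of 0.01 and no call. At an unadjusted p under 0.05 (limma), 3 were higher and 0 lower, against 4.90% and 4.57% of all genes. In all 4 pairs 8 were higher (20.5%) and 1 lower, against 7.77% and 7.38% of all genes. Chaf1b, a subunit of the chromatin assembly factor that works at replication forks, stood at 0.19 ± 0.13 (adjusted p = 0.444) and the histone-binding protein gene Rbbp7 at 0.17 ± 0.10 (adjusted p = 0.474, both limma). The 28 core histone modifier and polycomb genes had a median of -0.01 and no call (1 higher and 0 lower at an unadjusted p under 0.05). Of these, 3 were higher (10.7%) and 2 lower in all pairs, which is near the shares of all genes. Ezh2, the methyltransferase of H3 lysine 27, was at 0.31 ± 0.18 (adjusted p = 0.313), and the acetyltransferase gene Kat2a at -0.12 ± 0.18 (adjusted p = 0.667, both limma).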

How the data were processed

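The authors deposited 4 two-colour Agilent array files with linear spot and background intensities read by Feature Extraction 10.5.1.1, per the file headers, and a value table of log10 ratios. The deposited log10 ratios are the software's own and differ from those in the array files by at most 4.84e-06 after turning 2 arrays. Intensities were corrected with normexp (offset 50; spots with an outlier flag, 143 to 248 per array, left out) and normalized by loess within arrays in limma 3.58.1 (R 4.3.3). Log2 ratios were fitted with a dye and a genotype term (2 residual and 3.36 prior degrees of freedom), with Benjamini-Hochberg adjustment over 17654 genes. A gene is its brightest probe. Levels are log2 intensities after Aquantile normalization between arrays. Names came from accessions (24844 probes), current symbols or unique synonyms in the reference (GRCm38.p6); synonyms merge old and new names of a gene. Probe coordinates are mm9, per the file headers. Each array is a littermate pair, per the labels; all arrays lie on a single slide, so no slide batch exists. The fit was tested on simulated data. Members, gene lists and the rule for named genes (every member accounted for; in full, the 6 clustered and 4 variant members with the lowest p and the brightest of each type; of other lists, called members and 2 others) were chosen with earlier results of these data known. Alternatives changed background, normalization, filter, probe choice, dye term, variance model, blocking and the pairs used.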

Additional observations from a re-analysis of the deposited data

How the results depend on the processing

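Results were recomputed under 19 alternatives. No histone gene was called in 18 of them; the exception was 1 gene, Hist1h1e, when every probe was tested on its own. The count of all genes called was 183, but 82 with outlier flags applied after the background fit, and 53 to 324 when each replicate was left out. The clustered median ran from -0.018 (without replicate 4) to 0.20 (without replicate 2) when each replicate was left out, and the H2B minus variant median was 0.25 with no filter on dim probes. Hist1h2bk ranged from 0.33 to 0.37, with adjusted p from 0.0512 to 0.529 (limma). With near-identical probes counted once, an alternative added after the data had been seen, 3 H2B units in place of 5 genes were higher in every pair, and the clustered median was 0.073. Without the replicate block, the ratio of Hist1h2bk was 0.35 (adjusted p = 0.449, limma). The number of arrays and the near-identical probes limit what can be separated.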
